A study of Homo sapiens with 8 samples.

Results

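The genes described here code for the enzymes that activate plasminogen, their receptor and inhibitors, and the cell-surface starter and brake of blood coagulation, in LN229 glioblastoma cells. The 7 genes were chosen by name: PLAT, PLAU, PLAUR, SERPINE2, SERPINB2, F3 and THBD, out of 26364 genes in the count file. Reads were found for 6 of them, and the same 6 passed the filter on low counts. THBD had no read in any library.

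The RNA came from LN229, a human glioblastoma line, in the form of 2 stably transfected clones that were both kept under G418 selection. Clone Surv-GFP (D6) carries a plasmid for Survivin with a functional nuclear export sequence (NES) fused to eGFP. This fusion is mostly cytoplasmic in untreated cells. Clone SurvNESmut-GFP (L2) carries the fusion with a mutated NES. Cells of either clone received no drug or 50 µM of the methylating drug temozolomide (TMZ) over 48 h. The resulting 4 groups have 2 libraries apiece, named by the letters a and b. The labels do not say whether untreated cells received the solvent of TMZ. Each form of Survivin is represented by 1 clone, so clone and NES status cannot be told apart. The study describes independent biological replicates that were each run in technical duplicate. The labels do not say which of these the letters a and b are, so all p-values measure only the spread between letters.

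Plasminogen is a blood protein that becomes the protease plasmin when it is cut by tissue-type plasminogen activator (PLAT) or by urokinase (PLAU). Urokinase works on the cell surface, where the receptor PLAUR holds it, and plasmin then degrades fibrin and parts of the extracellular matrix. Serpins such as SERPINE2 and SERPINB2 trap the activators in inactive complexes, and this system is known for its part in the invasion of glioma cells. Coagulation is the opposing process: F3, tissue factor, starts it by binding factor VII, and THBD, thrombomodulin, turns thrombin towards the activation of the anticoagulant protein C.

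Between 15826923 and 18861603 reads per library fell on genes, and 14201 genes were tested. The letters of the SurvNESmut-GFP TMZ group differed more than those of the other groups. The chi-square of their counts was 5.49 per degree of freedom against 2.14 to 2.58 elsewhere, and letter a had 14.3% of its reads outside genes, against 11.2% to 12.8% in the other libraries. Some results of PLAUR, SERPINE2 and F3 that moved with this library are therefore also given without it. Values of other genes can move with it too. Of 10 glial and glioma markers, 7 were present, among them VIM, SOX10 and nestin, whereas the astrocyte markers GFAP, AQP4 and SLC1A2 had a mean below 1 CPM. The 6 endothelial markers, whose cell type is a usual source of PLAT and THBD, summed to 0.535 to 1.08 CPM with CLDN5 at 0. The sums of the other marker lists moved with the groups. The 6 macrophage markers, nearly all CD68 and with AIF1 at 0, summed to 12.1 to 12.2 CPM in untreated and 17.3 to 19.4 CPM in TMZ-exposed Surv-GFP cells, and to 15.9 to 16.3 and 19.7 to 22.2 CPM in SurvNESmut-GFP cells. The 6 fibroblast and pericyte markers, all of them with reads, summed to 70.3 to 75.6 and 46.1 to 46.4 CPM in Surv-GFP cells, and to 101 to 112 and 78.5 to 85.2 CPM in SurvNESmut-GFP cells, in the same order. The 10 glial markers summed to 6594 to 6718 and 4273 to 4467 CPM, and to 4691 to 4891 and 3928 to 3987 CPM. The part of these lists in the results was not tested.

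Promoters of 4 members whose levels changed upon TMZ are shown first, to set the sequences beside the changes described further on. RefSeq (GRCh38.p14) gave the 250 bases before the start of 5 of the 7 genes, and those of PLAT and THBD are not shown. The first listed start of each gene was taken, and whether LN229 cells use it was not tested. Capitals mark TGANTCA, which a dimer of the AP-1 family can bind, TATAAA, the TATA element, and GGGCGG, the GC box, each searched on both strands, so that CCGCCC and TTTATA are the latter elements read from the other strand. F3 and SERPINB2 are shown because their transcripts were raised by TMZ in both clones, PLAUR because its direction differed between clones, and SERPINE2 because it changed in 1 clone.
F3, chr1:94541760-94542009, minus strand: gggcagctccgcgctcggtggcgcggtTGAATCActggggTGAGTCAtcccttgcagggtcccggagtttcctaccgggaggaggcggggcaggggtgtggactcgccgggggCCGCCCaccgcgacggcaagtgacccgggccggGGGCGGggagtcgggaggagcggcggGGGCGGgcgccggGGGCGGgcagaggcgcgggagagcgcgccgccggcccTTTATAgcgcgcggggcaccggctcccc
SERPINB2, chr18:63887455-63887704, plus strand: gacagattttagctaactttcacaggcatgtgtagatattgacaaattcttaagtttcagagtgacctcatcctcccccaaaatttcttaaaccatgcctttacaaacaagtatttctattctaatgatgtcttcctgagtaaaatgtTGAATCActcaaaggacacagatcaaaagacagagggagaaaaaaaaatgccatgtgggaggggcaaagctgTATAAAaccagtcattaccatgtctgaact
PLAUR, chr19:43670170-43670419, minus strand: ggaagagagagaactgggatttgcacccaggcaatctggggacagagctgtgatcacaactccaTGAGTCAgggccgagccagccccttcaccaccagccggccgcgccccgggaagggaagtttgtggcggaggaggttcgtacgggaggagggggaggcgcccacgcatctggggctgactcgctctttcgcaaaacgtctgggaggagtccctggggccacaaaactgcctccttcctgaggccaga
SERPINE2, chr2:224031479-224031728, minus strand: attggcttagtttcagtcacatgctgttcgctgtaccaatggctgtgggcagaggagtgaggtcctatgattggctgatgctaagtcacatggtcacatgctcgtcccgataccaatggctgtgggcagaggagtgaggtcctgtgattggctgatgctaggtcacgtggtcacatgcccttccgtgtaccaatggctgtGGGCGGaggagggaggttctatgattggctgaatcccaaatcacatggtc

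TGANTCA stood in 3 of these windows, with its first base at -223 and -210 in F3, at -102 in SERPINB2 and at -186 in PLAUR. It was found in 6.57% of the 35116 promoters of the same length. TATAAA stood at -30 in SERPINB2 and, on the other strand, at -28 in F3, and 10.7% of all promoters held it. GGGCGG occurred 4 times in F3 and once in SERPINE2, at -50, and in 42.6% of all promoters. The window of PLAU, which is not shown, held none of these strings. The shown windows were picked for changes upon TMZ, so their matches cannot be weighed against the shares of all promoters. Neither the NF-kB string searched nor TGACGTCA, held by 1.73% and 1.65% of promoters, was found in these windows or in that of PLAU. The NF-kB search used a single strict form of the motif, so a site that departs from it at any fixed base was missed. Whether F3 or the other windows hold other forms of the NF-kB motif was not tested. A match of letters is a description and shows no binding.

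The members were transcribed at very different levels. Counts scaled to a common library size (CPM) were divided by the exon length of each gene in GENCODE v29 to compare levels between genes. In untreated Surv-GFP cells SERPINE2 stood at 234 CPM per kb, above PLAT at 53.6, PLAUR at 4.07 and F3 at 1.19 CPM per kb. SERPINB2 and PLAU followed at 0.129 and 0.0461 CPM per kb. The inhibitor SERPINE2 and the activator PLAT thus carried most of the reads of these genes, and PLAU, whose protein is the ligand of PLAUR, was close to the limit of detection. No read of PLG, the gene of plasminogen itself, was counted in any of the 8 libraries, which allows up to 3 reads in each. The order of these levels was the same in TMZ-exposed SurvNESmut-GFP cells, where SERPINE2 stood at 110 and PLAT at 89.8, PLAUR at 8.20, F3 at 5.17, SERPINB2 at 2.27 and PLAU at 0.258 CPM per kb.

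**Figure D1:**
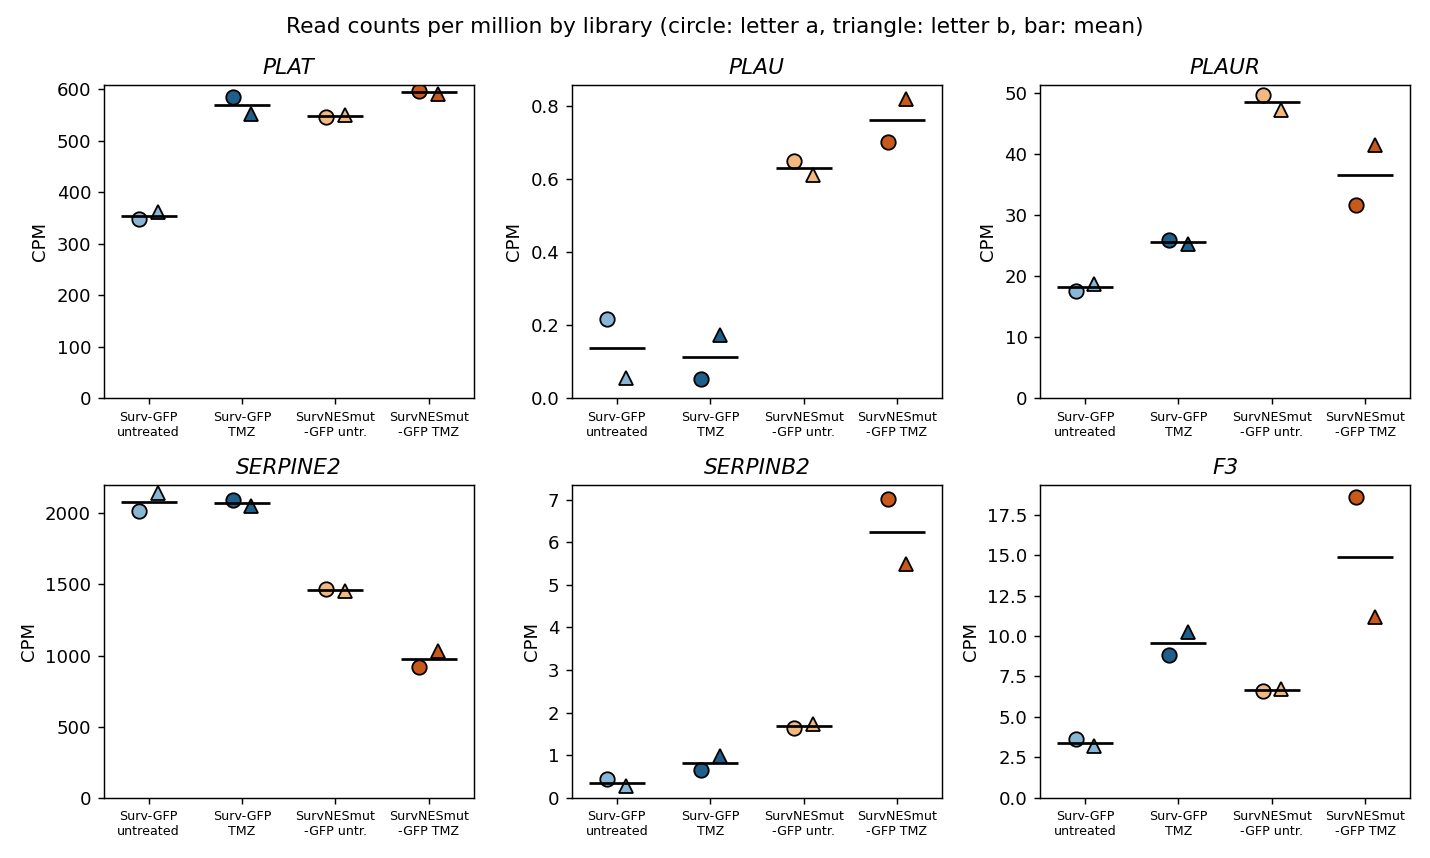
Level of the 6 members with reads, in CPM (y axis, from 0), for each of the 8 libraries. Circles are letter a, triangles letter b and bars the mean of the 2 letters. PLAT was lowest in untreated Surv-GFP cells, SERPINE2 lowest in SurvNESmut-GFP cells with TMZ, and PLAU, PLAUR and SERPINB2 were higher in every SurvNESmut-GFP library than in every Surv-GFP library. The share of all genes separated in this way was not counted.

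The first question was how TMZ altered these transcripts in each clone. In Surv-GFP cells PLAT, PLAUR, SERPINB2 and F3 rose, and 0 members fell by edgeR, by DESeq2 or at an unadjusted p of 0.05. In SurvNESmut-GFP cells SERPINB2 and F3 rose, and SERPINE2 and PLAUR fell. Among all tested genes, edgeR's quasi-likelihood test called 30.1% higher and 28.9% lower in Surv-GFP cells, and 18.6% higher and 19.1% lower in SurvNESmut-GFP cells. The median over the 6 members was 0.59 on the log2 scale in the former clone and 0.19 in the latter, while that of all tested genes was 0 and 0.0035. With such shares called and 6 members, these counts describe the members only. The study, which also used edgeR and a quasi-likelihood F test, reports few significant hits for the TMZ effects and loosened its p threshold. Letters of the same group correlated at 0.994 or more in log2 CPM here. Why far more genes were called here than in the study was not tested.

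PLAT, the gene of tissue-type plasminogen activator, responded to TMZ in the clone where it started lower. Untreated Surv-GFP libraries had 348 and 362 CPM and TMZ-exposed ones 586 and 552 CPM. Untreated SurvNESmut-GFP libraries had 547 and 550 CPM, and with TMZ they had 596 and 592 CPM. All letters of the untreated Surv-GFP group lay far below the other 6 libraries, which spanned a narrow range. TMZ raised PLAT 1.61-fold in Surv-GFP cells (log2 fold change 0.68 ± 0.05 SE, edgeR adjusted p = 3e-09). In SurvNESmut-GFP cells the log2 fold change was 0.11, with a 95% interval of 0.016 to 0.21, and missed the threshold (edgeR adjusted p = 0.063). With library size alone in place of TMM scaling this value was 0.15 and passed (adjusted p = 0.019, and 0.019 to 0.2 over all alternatives).

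The TMZ effect on PLAT was smaller in SurvNESmut-GFP cells by 0.57 on the log2 scale (difference -0.57 ± 0.07 SE, edgeR adjusted p = 6e-06). Before treatment PLAT was higher in the SurvNESmut-GFP clone, with a log2 difference of 0.63 from Surv-GFP (edgeR adjusted p = 5.9e-09). With TMZ the clones differed by 0.06, with a 95% interval of -0.04 to 0.16. This comparison of clones shares its libraries with the TMZ comparisons, so the values are set side by side and not as separate support.

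PLAU, the gene of urokinase, was counted in a few reads only. Surv-GFP libraries held 4 and 1 reads untreated and 1 and 3 reads with TMZ. SurvNESmut-GFP libraries held 12 and 11 reads untreated and 12 and 13 with TMZ. Every SurvNESmut-GFP library thus held more PLAU reads than every Surv-GFP library, while the letters of Surv-GFP cells overlapped between treatments. The ratio of the summed counts, SurvNESmut-GFP over Surv-GFP, was 4.62 without TMZ (95% counting interval 1.72 to 15.5) and 6.85 with TMZ (2.36 to 27.1). By edgeR the adjusted p of the clone difference was 0.0057 without TMZ and 0.0011 with TMZ. Among the 15 alternatives that tested PLAU, the call without TMZ was lost with DESeq2 (adjusted p = 0.069) and without the untreated Surv-GFP letter b. The filter of at least 1 CPM in 2 libraries removed PLAU, so no value comes from that setting. The fitted log2 difference without TMZ was 2.15, and it moved to 3.36 without letter a and to 1.51 without letter b of the untreated Surv-GFP group. With TMZ it was 2.70 and ranged from 2.06 to 3.66 with each library left out in turn.

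A TMZ effect on PLAU was not detectable at this depth. The ratio of counts upon TMZ was 0.810 (95% counting interval 0.161 to 3.76) in Surv-GFP and 1.20 (0.654 to 2.21) in SurvNESmut-GFP cells. These intervals cover counting error only and leave room for changes of either sign. Of the exon bases of PLAU, 31.1% overlap C10orf55 on the opposite strand. It is not known if the counting used strand, so reads of these genes cannot be told apart there.

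PLAUR, the gene of the urokinase receptor, was the member whose TMZ effect passed the test with opposite signs in the clones. Its levels in Surv-GFP cells were 17.6 and 18.7 CPM untreated and 25.8 and 25.3 CPM with TMZ. In SurvNESmut-GFP cells they were 49.7 and 47.3 CPM untreated and 31.7 and 41.4 CPM with TMZ. No groups overlapped, and the SurvNESmut-GFP libraries with TMZ lay between the Surv-GFP libraries and the untreated SurvNESmut-GFP ones. PLAUR rose 1.41-fold upon TMZ in Surv-GFP cells (log2 fold change 0.49 ± 0.11 SE, edgeR adjusted p = 0.00098). It fell by 0.41 ± 0.09 SE on the log2 scale in SurvNESmut-GFP cells (edgeR adjusted p = 0.0023).

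The difference between these effects on PLAUR was -0.91 ± 0.14 SE (edgeR adjusted p = 0.00012), and -0.72 without letter a of the SurvNESmut-GFP TMZ group. Without that library the decrease of PLAUR in SurvNESmut-GFP cells was smaller, with a log2 fold change of -0.23 (adjusted p = 0.033, and 7.4e-07 to 0.035 over all alternatives). Untreated SurvNESmut-GFP cells had 2.67-fold more PLAUR than untreated Surv-GFP cells (log2 1.42, edgeR adjusted p = 3.2e-09). After TMZ the clones differed 1.43-fold (log2 0.51, edgeR adjusted p = 0.00026), and by 0.27 on the log2 scale without letter b of the SurvNESmut-GFP TMZ group.

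SERPINE2, the gene of protease nexin-1, which inhibits thrombin, urokinase and tissue-type plasminogen activator, was the most abundant member per kb in every group. Surv-GFP libraries had 2018 and 2140 CPM untreated and 2093 and 2051 CPM with TMZ. SurvNESmut-GFP libraries had 1468 and 1453 CPM untreated, and 923 and 1035 CPM with TMZ. The Surv-GFP groups overlapped fully, and both SurvNESmut-GFP groups lay below them and apart from each other. In SurvNESmut-GFP cells TMZ lowered SERPINE2 1.49-fold (log2 fold change -0.58 ± 0.05 SE, edgeR adjusted p = 2.9e-07). In Surv-GFP cells the log2 fold change was -0.0048 with a 95% interval of -0.11 to 0.11 (edgeR adjusted p = 0.95). The effects differed by -0.57 ± 0.07 SE (edgeR adjusted p = 1.6e-05), and by -0.49 without letter a of the SurvNESmut-GFP TMZ group.

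Between clones SERPINE2 was the member that was lower in SurvNESmut-GFP cells under both conditions. The log2 difference from Surv-GFP cells was -0.51 untreated (edgeR adjusted p = 2.6e-07) and -1.08 with TMZ (edgeR adjusted p = 2.4e-11), the latter a 2.12-fold lower level. The range over all alternatives was -0.57 to -0.46 untreated and -1.20 to -1.04 with TMZ.

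**Figure D2:**
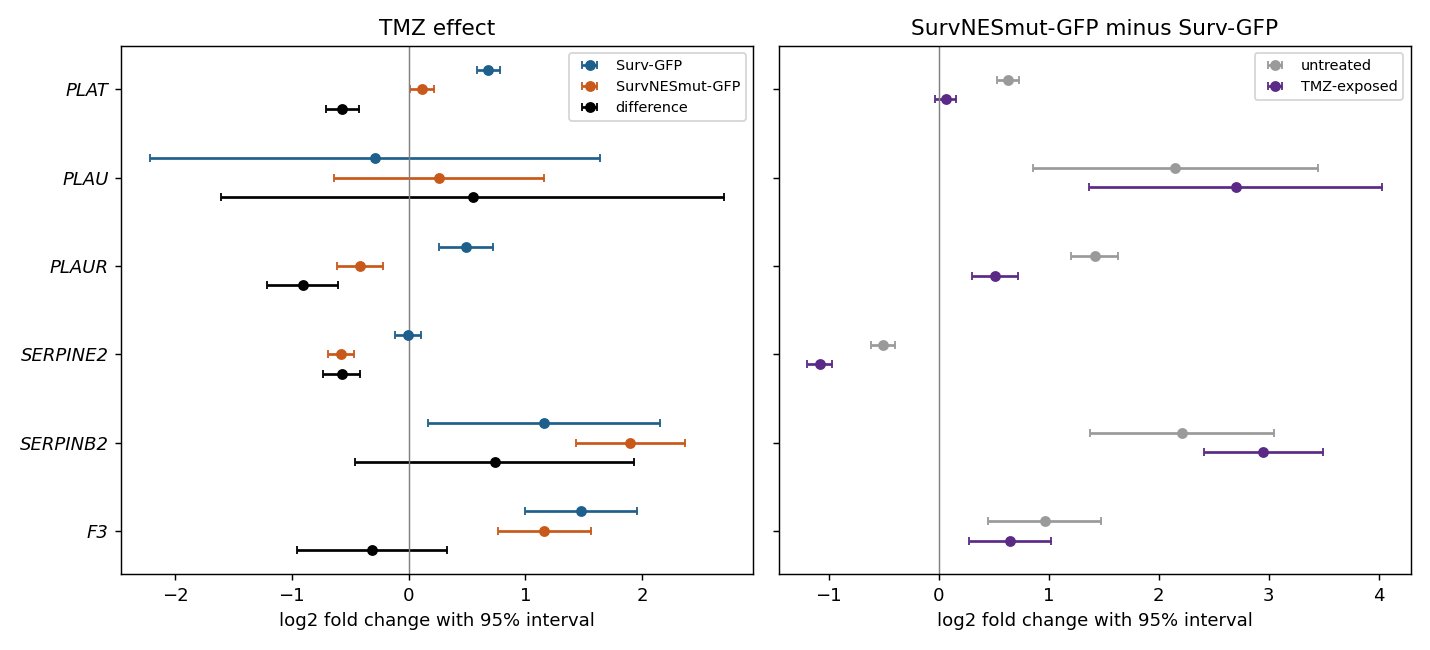
Log2 fold changes (x axis) of the 6 tested members with 95% intervals from edgeR. The left panel gives the TMZ effect in each clone and the difference of these effects (SurvNESmut-GFP minus Surv-GFP), the right panel the difference between clones untreated and with TMZ. The difference of effects lies below 0 for PLAT, PLAUR and SERPINE2, and the intervals of PLAU are the widest.

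As an inhibitor and the activator it traps, SERPINE2 and PLAT can be read against each other within a library, where scaling between libraries plays no role. This ratio was chosen after its values were seen and is given without a test. Surv-GFP libraries held 5.80 and 5.92 SERPINE2 reads per PLAT read untreated and 3.57 and 3.71 with TMZ. SurvNESmut-GFP libraries held 2.68 and 2.64 untreated and 1.55 and 1.75 with TMZ. The 4 groups did not overlap in this ratio. Upon TMZ the term that passed the test was PLAT in Surv-GFP cells and SERPINE2 in SurvNESmut-GFP cells.

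**Figure D3:**
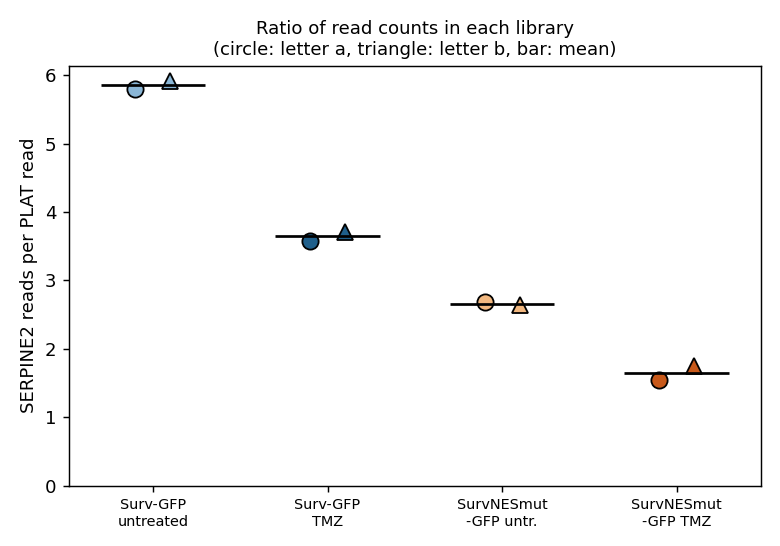
SERPINE2 reads per PLAT read (y axis, from 0) in each of the 8 libraries, not corrected for gene length. Circles are letter a, triangles letter b and bars the mean. The ratio was highest in untreated Surv-GFP cells (5.80 and 5.92) and lowest in SurvNESmut-GFP cells with TMZ (1.55 and 1.75).

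SERPINB2, the gene of plasminogen activator inhibitor 2, a largely intracellular urokinase inhibitor, rose upon TMZ in both clones. Surv-GFP libraries held 8 and 5 reads untreated and 12 and 17 with TMZ. SurvNESmut-GFP libraries held 30 and 31 reads untreated and 120 and 87 with TMZ, which corresponds to 1.63, 1.72, 7.01 and 5.48 CPM. The groups did not overlap, and the SurvNESmut-GFP libraries with TMZ stood well above all others. In SurvNESmut-GFP cells the rise was 3.73-fold (log2 fold change 1.90 ± 0.22 SE, edgeR adjusted p = 4.1e-06, and log2 1.71 to 2.07 with each library left out in turn). In Surv-GFP cells it was 2.24-fold (log2 fold change 1.16 ± 0.47 SE, edgeR adjusted p = 0.042).

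The SERPINB2 call in Surv-GFP cells rested on few reads and was lost in 7 of 16 alternatives, with adjusted p from 0.033 to 0.27. It was lost with DESeq2 (adjusted p = 0.091), with the quasi-likelihood method of edgeR 4 (adjusted p = 0.051) and without either untreated Surv-GFP letter (adjusted p = 0.06 for a and 0.21 for b). It was also lost without letter b of the Surv-GFP TMZ group (adjusted p = 0.27) and without either untreated SurvNESmut-GFP letter (adjusted p = 0.055 each). The difference between the clones' TMZ effects was 0.74, with a 95% interval of -0.46 to 1.93 (edgeR adjusted p = 0.33). Between clones SERPINB2 was higher in SurvNESmut-GFP cells, 4.64-fold untreated (edgeR adjusted p = 0.00012) and 7.74-fold with TMZ (edgeR adjusted p = 2.9e-08). SERPINB10 shares 19.9% of the exon bases of SERPINB2 on the same strand but had 0 to 3 reads per library.

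F3, the gene of tissue factor, rose upon TMZ in both clones as well. Surv-GFP libraries had 3.63 and 3.20 CPM untreated and 8.82 and 10.3 CPM with TMZ. SurvNESmut-GFP libraries had 6.62 and 6.72 CPM untreated and 18.6 and 11.2 CPM with TMZ. The groups did not overlap, but letter a of the SurvNESmut-GFP TMZ group stood far above letter b. F3 rose 2.79-fold in Surv-GFP cells (log2 fold change 1.48 ± 0.23 SE, edgeR adjusted p = 3.2e-05) and 2.24-fold in SurvNESmut-GFP cells (log2 1.16 ± 0.19 SE, edgeR adjusted p = 0.00013). Without letter a of the SurvNESmut-GFP TMZ group the latter value was 0.74 and still passed (adjusted p = 0.00057, and 3.2e-10 to 0.0047 over all alternatives).

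Untreated SurvNESmut-GFP cells had 1.95-fold more F3 than untreated Surv-GFP cells (log2 0.96, edgeR adjusted p = 0.0024). With TMZ the log2 difference between clones was 0.65 (edgeR adjusted p = 0.0038), but it lost the call without letter a of the SurvNESmut-GFP TMZ group (0.19, adjusted p = 0.28) and without letter a of the Surv-GFP TMZ group (0.51, adjusted p = 0.06). Over all alternatives this adjusted p ranged from 4.1e-07 to 0.28. The difference of the TMZ effects on F3 was -0.31, with a 95% interval of -0.96 to 0.33 (edgeR adjusted p = 0.46). It rested on the same pair of libraries: without letter a of the SurvNESmut-GFP TMZ group it was -0.74 (adjusted p = 0.0095), and without letter b it was 0.0017 (adjusted p = 1).

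THBD, the gene of thrombomodulin, was at 0 reads in all 8 libraries. A count of 0 allows up to 3 reads, which corresponds to 0.160 to 0.189 CPM in a single library and to 0.0211 CPM over the 142183732 reads of all libraries. No fold change is given. F3 was thus transcribed in both clones while THBD was not detectable at this depth.

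Of the 6 tested members, SERPINE2, PLAUR and PLAT had a TMZ effect that was lower in the SurvNESmut-GFP clone, and 0 had a higher one by edgeR, by DESeq2 or at an unadjusted p of 0.05. Of all tested genes, edgeR called 16.6% higher and 20.2% lower in this comparison. In the untreated clones 5 members were higher and 1, SERPINE2, was lower in SurvNESmut-GFP cells, where 34.7% of all genes were higher and 29.4% lower. With TMZ 4 members were higher and 1, again SERPINE2, was lower, against 34.5% and 34.7% of all genes. The members' median log2 difference between clones was 1.19 untreated and 0.58 with TMZ, while that of all genes was 0.034 and -0.00053.

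The genes whose pattern over the 8 libraries was most like each member were found by the root-mean-square distance of mean-centred log2 CPM, as a description with no test. SERPINE2 was closest to MAT2B, at a distance of 0.0668, and KDM5B at 0.0794. PLAT was closest to MAGOH at 0.0469 and FAM50A at 0.0502, and PLAUR to FLT1, a receptor of vascular endothelial growth factor, at 0.0976 and the proprotein convertase FURIN at 0.128. For F3 they were the metalloprotease ADAMTS16 at 0.165 and PAWR at 0.166, and for SERPINB2 the actin-bundling protein LCP1 at 0.220 and C1QTNF1 at 0.311. PLAU, with its few reads, was closest to MESP2 at 0.203 and SVEP1 at 0.240.

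The other genes of the plasminogen system were taken from a list of 25, of which 15 were tested. Upon TMZ 4 rose and 6 fell in Surv-GFP cells, and 5 rose and 5 fell in SurvNESmut-GFP cells, with medians of -0.08 and 0.14 on the log2 scale. Over all tested genes 30.1% were higher and 28.9% lower in the former clone, and 18.6% and 19.1% in the latter.

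SERPINA5, the protein C inhibitor, which also inhibits urokinase, fell in both clones, with log2 fold changes of -1.28 and -0.83 (edgeR adjusted p = 8.8e-08 and 6.3e-05). LRP1, the endocytic receptor that clears complexes of activators and serpins, fell in Surv-GFP cells (log2 fold change -0.49, edgeR adjusted p = 9.1e-06). It rose in SurvNESmut-GFP cells (0.28, edgeR adjusted p = 0.0039), where it was lower before treatment (-0.93, edgeR adjusted p = 4.7e-09). The TMZ effect on LRP1 was thus higher in SurvNESmut-GFP cells, by 0.78 (edgeR adjusted p = 1.1e-05). VLDLR, a relative with the same ligands, rose in SurvNESmut-GFP cells by 1.16 (edgeR adjusted p = 6.8e-07), where the difference of effects was 1.11 (edgeR adjusted p = 3.4e-05). Before treatment VLDLR was lower in that clone (-0.98, edgeR adjusted p = 1.2e-06), and with TMZ the clones differed by 0.13 (edgeR adjusted p = 0.28). MRC2, a collagen receptor that associates with PLAUR, fell in both clones (-0.83 and -0.41, edgeR adjusted p = 6e-07 and 0.00082). With each library left out in turn, the TMZ effect in SurvNESmut-GFP cells ranged from -1.09 to -0.60 for SERPINA5. It ranged from 0.98 to 1.32 for VLDLR and from -0.53 to -0.28 for MRC2. ANXA2, which binds PLAT and plasminogen at the cell surface, fell in SurvNESmut-GFP cells (-0.45, edgeR adjusted p = 4.5e-06) but was higher there than in Surv-GFP cells before treatment, by 1.35 (edgeR adjusted p = 2e-12).

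Between the clones, 6 of the 15 were higher and 7 lower in untreated SurvNESmut-GFP cells, and 7 were higher and 6 lower with TMZ. In the difference of TMZ effects 6 were higher and 4 lower. The medians of these comparisons were -0.02, 0.13 and -0.01. Of all tested genes, 34.7% were higher and 29.4% lower untreated, 34.5% and 34.7% with TMZ, and 16.6% and 20.2% in the difference.

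**Figure D4:**
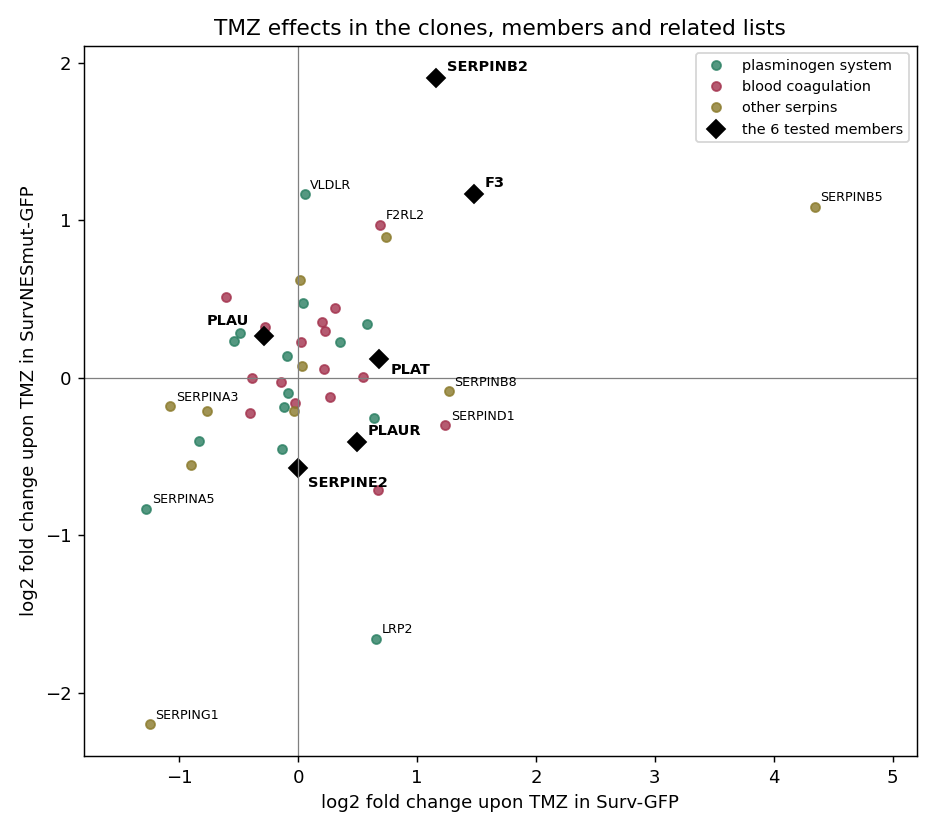
Log2 fold change upon TMZ in Surv-GFP (x axis) and SurvNESmut-GFP cells (y axis) for the 6 tested members (black diamonds) and tested genes of 3 related lists (coloured circles). SERPINB5, SERPINB2 and F3 lie in the upper right, PLAUR and SERPINE2 below the horizontal line at 0, and SERPINA5 in the lower left.

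F3 and THBD belong to the coagulation system, for which 16 of 30 listed genes were tested. In Surv-GFP cells 6 rose and 3 fell upon TMZ, with a median of 0.21, and in SurvNESmut-GFP cells 5 rose and 2 fell, with a median of 0.03, against the same 30.1% and 28.9%, and 18.6% and 19.1%, of all genes. TFPI2, a secreted inhibitor of plasmin and of the complex of F3 and factor VII, had the same signs as PLAUR. Its level was 78.1 and 89.3 CPM untreated and 142 and 124 CPM with TMZ in Surv-GFP cells, and 114 and 113 CPM untreated and 69.5 and 69.0 CPM with TMZ in SurvNESmut-GFP cells. TFPI2 rose in the former (log2 fold change 0.67, edgeR adjusted p = 2.6e-07) and fell in the latter (-0.71, edgeR adjusted p = 6.5e-07), with a difference of -1.38 (edgeR adjusted p = 1.9e-08). The thrombin receptor F2R had the opposite signs, -0.28 in Surv-GFP and 0.32 in SurvNESmut-GFP cells (edgeR adjusted p = 0.00027 and 5.9e-05), with a difference of 0.60 (edgeR adjusted p = 7.5e-06). F2RL2, a co-receptor for thrombin, rose in both clones by 0.69 and 0.97 (edgeR adjusted p = 1.2e-06 and 9e-09). F2R and GAS6, a vitamin K-dependent ligand of receptor kinases, were higher in untreated SurvNESmut-GFP cells by 1.39 and 1.67 (edgeR adjusted p = 7.1e-13 and 7.9e-11).

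Factor VII, the partner of F3, had no read in any library, and neither had factors IX, X and XI. In the difference of effects 2 coagulation genes were higher and 3 lower, with a median of 0.12, beside 16.6% and 20.2% of all genes. Between the clones 8 were higher and 5 lower in SurvNESmut-GFP cells both untreated and with TMZ, with medians of 0.24 and 0.09. The shares of all genes were 34.7% higher and 29.4% lower untreated, and 34.5% and 34.7% with TMZ.

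Of 20 other serpins 10 were tested, as a family background for SERPINE2 and SERPINB2. In Surv-GFP cells 2 rose and 3 fell upon TMZ, and in SurvNESmut-GFP cells 1 rose and 1 fell, with medians of -0.01 and -0.13, beside 30.1% and 28.9%, and 18.6% and 19.1%, of all genes. SERPINB5 (maspin), a clade B serpin like SERPINB2, had 12 and 18 reads in untreated and 316 and 292 in TMZ-exposed Surv-GFP cells, and 163 and 160 untreated and 334 and 286 with TMZ in SurvNESmut-GFP cells. TMZ raised it by 4.35 on the log2 scale in the Surv-GFP and by 1.08 in the SurvNESmut-GFP clone (edgeR adjusted p = 3.7e-12 and 9.5e-07), and the effects differed by -3.26 (edgeR adjusted p = 2.3e-08). SERPINB8, of the same clade, rose in Surv-GFP cells by 1.26 (edgeR adjusted p = 1.5e-11), and its effects differed by -1.35 (edgeR adjusted p = 5.3e-09). SERPINA3, alpha-1-antichymotrypsin, fell in Surv-GFP cells by 1.08 (edgeR adjusted p = 3.2e-06) and was lower in untreated SurvNESmut-GFP cells (log2 difference -4.19, edgeR adjusted p = 9.8e-13). In the difference of effects 2 of the 10 were higher and 2 lower (median 0.10), beside 16.6% and 20.2% of all genes. In SurvNESmut-GFP compared with Surv-GFP cells 4 were higher and 4 lower untreated (median 0.08), and 2 were higher and 5 lower with TMZ (median -0.62). All genes were 34.7% higher and 29.4% lower untreated, and 34.5% and 34.7% with TMZ. Every list was written from general knowledge, with earlier results of these data known, and the counts describe it only.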

How the data were processed

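The RNA-seq series holds 8 libraries of 2 LN229 clones. The authors deposited whole-number read counts per gene without normalization. The submitters' processing notes name STAR 2.5.0b, Cufflinks 2.2.1 and edgeR without giving their roles. The counting program, its annotation, the genome build and the strandedness are not named in the paper, labels or file headers, and coordinates are printed only for RefSeq promoter sequences, with their own build. The authors' 5 comparison tables (log2 fold changes, average log2 CPM, F, p and FDR) were not used.

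Rows naming no gene were left out of library sizes. Reads without a feature were 11.2% to 14.3% and ambiguous reads 1.19% to 1.28% of each library. Samples were grouped by their labels. The fit used edgeR 4.0.16 on limma 3.58.1 and R 4.3.3: 1 model with 4 group means over all 8 libraries, TMM scaling, the filterByExpr filter with the groups given (minimum count 10, 14201 genes) and the quasi-likelihood F test of the edgeR 3 series. Genes were called at a Benjamini-Hochberg adjusted p of 0.05 over all tested genes in each of 5 contrasts, and all tests were two-sided. CPM values are counts divided by the TMM-scaled library size. SE is the standard error of the log2 fold change.

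Members and lists were chosen with earlier results of these data known. Named list genes were at most 3 called genes per direction and contrast, by smallest p (for the difference, the 3 smallest p) whose libraries do not overlap. Not all of them are described, and 1 gene counted in a list is not reported here. Other settings were DESeq2 1.42.0, its size factors within edgeR, library size alone, 2 other filters, the quasi-likelihood method of edgeR 4, the replicate block, a fit restricted to the groups compared, and leaving out each library in turn. On simulated data with 200 of 14201 genes changed by 1 on the log2 scale, edgeR recovered 173 for the TMZ effect in Surv-GFP, 172 in SurvNESmut-GFP and 162 for the difference, with 12, 12 and 7 unchanged genes called. The simulation changed far fewer genes than were called in the real comparisons and gave all groups the same spread. How well the test worked under the real conditions was therefore not tested.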

Additional observations from a re-analysis of the deposited data

Results flagged for a closer look

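The TMZ effect differed between the clones for 3 members, by the test of the difference itself in the model over all 8 libraries (edgeR, adjusted over all tested genes). Of all tested genes 16.6% were higher and 20.2% lower in this comparison. The difference, SurvNESmut-GFP minus Surv-GFP on the log2 scale, was -0.57 for SERPINE2 (adjusted p = 1.6e-05), -0.91 for PLAUR (adjusted p = 0.00012) and -0.57 for PLAT (adjusted p = 6e-06). The untreated and TMZ-exposed libraries did not overlap in either clone for PLAUR and PLAT, and for SERPINE2 they overlapped in Surv-GFP but not in SurvNESmut-GFP cells. The share of all genes whose libraries did not overlap was not counted. All 3 calls were kept in each of the 15 alternatives run.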

How the results depend on the processing

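The number of members called stayed within 1.5 times in all comparisons and alternatives, as did the number of all genes called. Among log2 fold changes of members, those that turned sign belonged to values that had not passed the test. With each library left out in turn, the TMZ effect on PLAU in Surv-GFP ranged from -1.28 to 0.92, turning positive without letter a of either Surv-GFP group (0.92 and 0.32). The difference of TMZ effects on PLAU ranged from -0.66 to 1.54 (-0.66 and -0.055 without these libraries). The TMZ effect on SERPINE2 in Surv-GFP ranged from -0.045 to 0.041 and was positive without the untreated letter b, and the difference for F3 ranged from -0.74 to 0.0017. Calls of SERPINB2, PLAU and F3 were lost and those of PLAT and F3 gained under the alternatives named beside them. Where a group is left with 1 library, it is assumed to vary like the other groups.

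Named list genes lost a call in 35 instances, all in SERPINI1, SERPING1, VKORC1, VKORC1L1, F2RL1, F2RL2, LRP2, TFPI, SERPINA3 and SERPINH1, and 28 list counts moved by more than 1.5 times. With DESeq2 the plasminogen genes raised by TMZ in Surv-GFP were 2 (also without the untreated Surv-GFP letter a), and those lower in the difference 2 (also without the SurvNESmut-GFP TMZ letter a or the untreated letter b). Those higher in the difference were 3 without letter a of either Surv-GFP group or of the untreated SurvNESmut-GFP group. Coagulation genes raised in SurvNESmut-GFP were 3 with DESeq2 and without letter b of either of its groups, and those lowered were 1 in the same settings, with library size alone, with only the libraries compared and without the untreated letter a. In the difference they were 1 higher with DESeq2, with the replicate block and without either untreated Surv-GFP letter, the Surv-GFP TMZ letter a or the untreated SurvNESmut-GFP letter b, and 1 lower with DESeq2. With at least 1 CPM in 2 libraries 3 were lower between untreated clones. Other serpins higher in the difference were 1 with DESeq2, and those lowered in SurvNESmut-GFP were 2 without its TMZ letter b and 0 without its untreated letter a.

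Little shift shared by the letters was seen: the correlation of the a minus b differences between groups was -0.07 to 0.08 over 14201 genes. This cannot show whether the letters were paired by culture or batch. With the replicate block 4186 genes were higher and 4017 lower upon TMZ in Surv-GFP, in place of 4271 and 4100, and of 110 gene results 109 kept their call, the other being F2RL2 (difference of effects 0.28, adjusted p = 0.051).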
